A study of Homo sapiens with 24 samples.

Results

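The 10 genes described here are HIF1A and ARNT, which encode the subunits of hypoxia-inducible factor 1, the prolyl hydroxylases EGLN1 and EGLN2, and 6 target genes, VEGFA, BNIP3, BNIP3L, NDRG1, P4HA1 and KDM3A. They were chosen by symbol in the platform's probe annotation, with earlier results of these data known. The rule used no measured value except that a member needed a detected probe. The array held 17 probes for them among 30113 probes with a single gene symbol, and 12 of the 17 were detected. This left 8 of the 10 genes, among 10246 genes tested in all. ARNT and EGLN1 had 1 probe each and did not pass.

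P493 is an established human B cell line that carries a MYC transgene which tetracycline (TET) switches off. For 48 h the treated cells received both TET and MST-312, a small-molecule telomerase inhibitor, and TET was then withdrawn while MST-312 stayed in the medium. RNA was sampled 0, 4, 8 and 24 h after this withdrawal, called release here, on 24 arrays that form 8 groups of 3 (2 treatments, 4 times). The TET schedule of the untreated cells and the oxygen level in culture are not given in the sources used here, so effects of schedule and of MST-312 cannot be told apart. The labels number the replicates 1 to 3 and do not state separate cultures, so SE and p-values measure only the spread between these arrays, which may be technical. All cells are of 1 line, and in such bulk RNA fewer cells of a kind and less RNA per cell cannot be told apart.

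Hypoxia-inducible factor is a pair of DNA-binding proteins. In oxygenated cells the EGLN enzymes hydroxylate the alpha subunit, the VHL ubiquitin ligase binds it and it is degraded, so the factor's activity is set largely by the amount of protein rather than of HIF1A mRNA. When oxygen is short the alpha subunit persists, pairs with ARNT and binds short hypoxia response elements near target genes, which carry the letters ACGTG or GCGTG. The targets serve vessel growth, mitochondrial turnover, matrix formation, chromatin and a switch to glycolysis. MYC proteins bind an overlapping element, CACGTG, and several hypoxia targets are also known MYC targets. Only mRNA was measured here.

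Of the 7 members that changed in some comparison, the promoters of BNIP3, EGLN2, P4HA1 and KDM3A are shown, to see which of these letters stand near their start sites. No windows of VEGFA, BNIP3L and NDRG1 were read. Each line below gives the 250 bases before a RefSeq transcription start (GRCh38.p14), written 5′ to 3′ on the gene's own strand, with ACGTG and GCGTG in capitals whichever strand carries them, so that their reverse complements CACGT and CACGC are in capitals too.
BNIP3, chr10:131981924-131982173, minus strand: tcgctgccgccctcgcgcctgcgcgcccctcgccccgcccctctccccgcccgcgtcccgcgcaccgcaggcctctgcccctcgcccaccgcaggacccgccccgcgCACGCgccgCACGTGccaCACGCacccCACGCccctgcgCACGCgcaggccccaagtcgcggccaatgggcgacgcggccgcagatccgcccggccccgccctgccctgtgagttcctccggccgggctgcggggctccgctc
EGLN2, chr19:40798941-40799190, plus strand: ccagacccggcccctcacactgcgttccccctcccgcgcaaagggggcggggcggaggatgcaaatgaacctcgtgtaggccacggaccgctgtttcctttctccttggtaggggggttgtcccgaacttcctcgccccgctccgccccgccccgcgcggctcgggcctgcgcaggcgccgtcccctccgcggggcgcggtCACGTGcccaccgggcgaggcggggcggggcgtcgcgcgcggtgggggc
P4HA1, chr10:73096867-73097116, minus strand: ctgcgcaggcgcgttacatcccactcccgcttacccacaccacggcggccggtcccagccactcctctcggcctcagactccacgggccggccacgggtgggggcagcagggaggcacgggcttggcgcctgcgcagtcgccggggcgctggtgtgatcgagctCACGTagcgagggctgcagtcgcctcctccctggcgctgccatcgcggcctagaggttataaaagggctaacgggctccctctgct
KDM3A, chr2:86441121-86441370, plus strand: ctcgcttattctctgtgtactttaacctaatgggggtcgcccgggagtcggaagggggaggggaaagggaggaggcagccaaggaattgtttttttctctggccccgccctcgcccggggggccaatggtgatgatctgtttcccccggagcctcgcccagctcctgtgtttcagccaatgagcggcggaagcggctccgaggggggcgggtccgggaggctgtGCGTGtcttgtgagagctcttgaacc
The BNIP3 window held 4 GCGTG matches and 1 CACGTG, a palindrome that contains ACGTG on both strands. CACGTG also stood in the EGLN2 window, with its first base 49 bases before the start. The P4HA1 window held ACGTG 86 bases and the KDM3A window GCGTG 26 bases before the start. EGLN2 and KDM3A each have a second RefSeq start, not printed, whose window held none of these motifs for EGLN2 and the same GCGTG for KDM3A. Windows of ARNT, EGLN1 and HIF1A, for which no change was called, were read too and are not printed. ARNT held none of these motifs, and EGLN1 held ACGTG 13 bases before its start. HIF1A held GCGTG 204 bases before its first start and none before its second. ACGTG was in 18.5%, GCGTG in 32.2%, CACGTG in 6.34% and at least one of ACGTG and GCGTG in 43.2% of 35116 windows of this length. A match is a description of the letters and not a measured binding site.

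Values below are log2 intensities of 1 probe per gene, the brightest of those that passed, after background correction and quantile normalisation. They serve to compare groups for a gene and not to rank genes. A gene was taken as changed at limma's Benjamini-Hochberg adjusted p below 0.05, two-sided and adjusted over all 10246 genes, with n = 3 arrays per group, and every p below is that adjusted p. Many genes changed in every comparison. MST-312 and untreated cells differed in 59.3% of all genes tested at 0 h, 59.4% at 4 h, 57.7% at 8 h and 61.8% at 24 h. Between them 4 of the 8 members differed at 0 h, 6 at 4 h, 2 at 8 h and 3 at 24 h, a share above that of all genes at 4 h and below it at the other times. At 24 h all 3 were higher with MST-312, as were 28.9% of all genes. With the replicate number as a block, which pairs the arrays of both treatments, the counts at 8 and 24 h were 4 and 4, and P4HA1 was then called lower at 24 h. With median scaling, which put the all-gene median at -0.17, 5 were called at 24 h, P4HA1 and BNIP3 among them as lower. The shares of all genes called with the block and with median scaling are not set beside these counts. They are therefore no result about the members. The arrays resembled each other in the share of probes detected, 34.3% to 38.0%, while mean raw intensity ran from 527 to 764. The marker sums below are of raw intensity before normalisation, so differences in brightness between arrays enter them. Of 8 B cell markers, 7 were on the array and 6 passed, with PAX5 detected on no array. The sum of the B cell markers' raw intensities was 69579 to 88486 on the untreated 0 h arrays and 36121 to 36472 on the MST-312 24 h arrays. Of the 6 epithelial and fibroblast markers 3 passed, and their sum was 781 to 901 in the former and 2062 to 2215 in the latter. EPCAM, detected on all 24 arrays, had group means of raw intensity from 185 to 1302, and the other 5 had group means of 81.5 to 223. Of the 6 T cell markers 2 passed (CD3E was detected on no array), as did 3 of 6 monocyte and macrophage markers. The monocyte sum was 1431 to 1847 on the untreated 0 h arrays and 1011 to 1213 on the MST-312 24 h arrays, with group means of LYZ from 167 to 899. Their part in the results was not tested. MYC mRNA was higher at 24 h than at 0 h by 0.70 on the log2 scale in untreated cells and by 1.31 with MST-312.

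**Figure D1:**
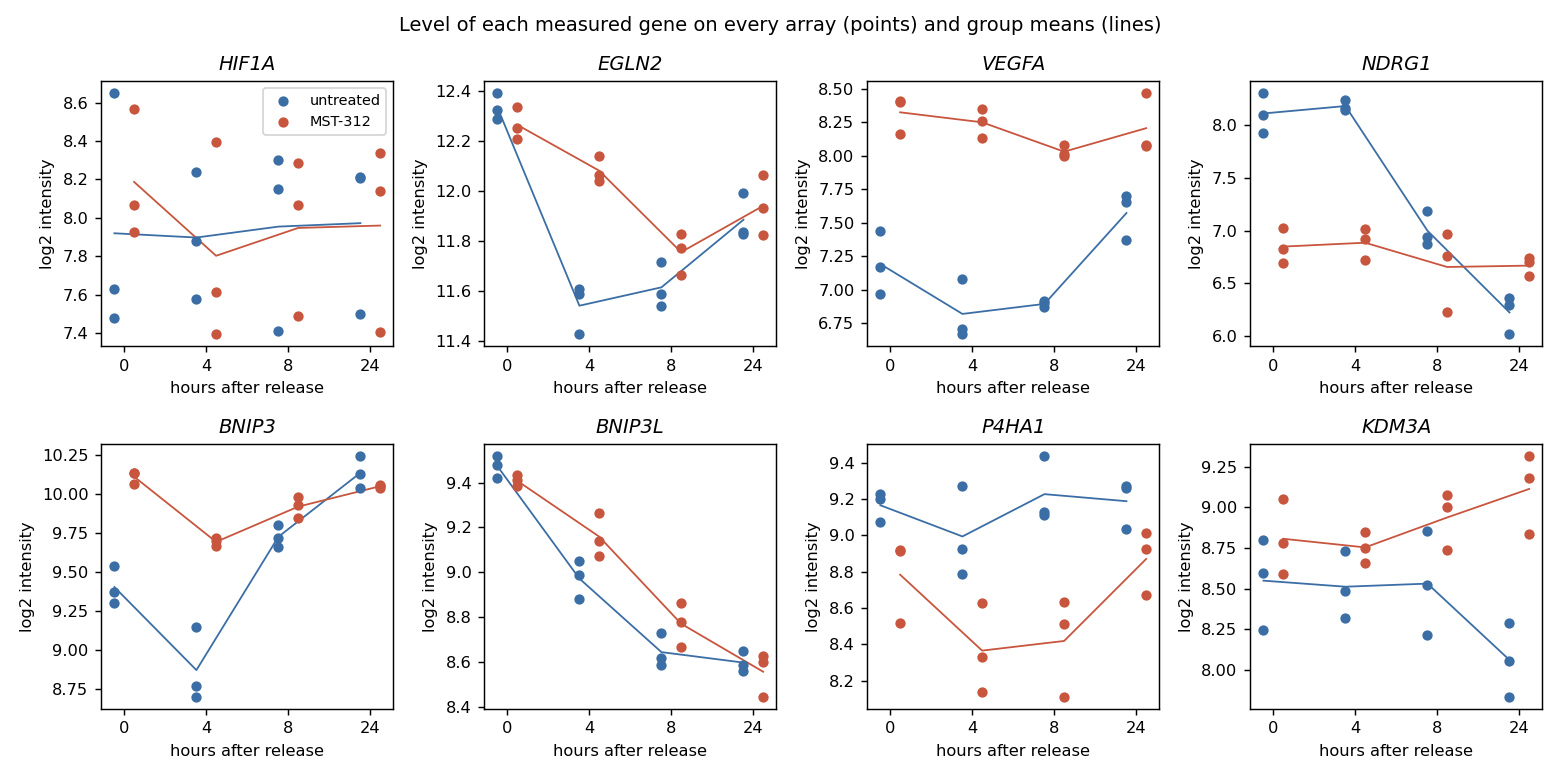
Log2 intensity (vertical axis, its own scale in each panel) of the 8 measured genes against hours after release (horizontal axis, times evenly spaced and not to scale). Each point is an array, blue untreated and red MST-312, and lines join the means of 3 arrays. VEGFA stands apart by treatment at every time, while NDRG1 falls from 8.11 to 6.22 in untreated cells and lies between 6.66 and 6.89 on average with MST-312.

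HIF1A, the oxygen-regulated alpha subunit, was detected on all 24 arrays and differed between no groups by this test. At 0 h its untreated arrays read 7.63, 7.48 and 8.65, and its MST-312 arrays 7.93, 8.06 and 8.57. At 24 h the untreated arrays read 7.50, 8.21 and 8.21, and the MST-312 arrays 7.40, 8.14 and 8.34. The arrays of the treatments overlapped at every time, and each group overlapped its neighbour in the order of the group means, which ran from 7.80 (MST-312 at 4 h) to 8.19 (MST-312 at 0 h). This span of 0.38 was smaller than the span of all but 3.76% of genes, against a median span of 1.09.

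Replicate 1 was the lowest HIF1A array in 7 of 8 groups. It lay on average 0.41 below its group mean and replicate 3 lay 0.37 above it. The difference between the treatments was 0.27 at 0 h (SE 0.34, 95% confidence interval -0.45 to 0.98, adjusted p = 0.525), an interval that holds 0 and differences of either sign. At 24 h it was -0.01 (-0.73 to 0.71, adjusted p = 0.977). With the replicate number as a block the SE fell to 0.12 and the 0 h interval became 0.01 to 0.52 (adjusted p = 0.0651). Both dimmer HIF1A probes lay higher with MST-312 at 0 h as well, by 0.35 and 0.41, and neither passed the test in any comparison.

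ARNT, the constitutive partner, was detected on 3 of 24 arrays, with group means of raw intensity between 110 and 149. EGLN1, the main oxygen sensor of most cells, was detected on none, with group means between 89.0 and 112. Both are therefore given no change.

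EGLN2, a hydroxylase of the same family, fell after release, by less with MST-312 at 4 h. In untreated cells its level was 12.32, 12.39 and 12.29 at 0 h and 11.61, 11.43 and 11.59 at 4 h. With MST-312 it was 12.21, 12.34 and 12.25 at 0 h and 12.06, 12.14 and 12.04 at 4 h. The untreated 4 h arrays lay below every MST-312 4 h array. With MST-312 every 4 h array also lay below every 0 h array, although that change did not pass the test. The change from 0 to 4 h was -0.79 (SE 0.08, adjusted p = 1.15e-07) in untreated cells and -0.18 (adjusted p = 0.0875) with MST-312, and these changes differed by 0.61 (SE 0.12, adjusted p = 0.000690). By 8 h EGLN2 had fallen in both, by 0.72 (untreated) and 0.51 (MST-312) on the log2 scale, and at 24 h the level was still lower than at 0 h, by -0.45 and -0.32. The treatments differed at 4 h alone, by 0.54 (SE 0.08, adjusted p = 8.83e-06). Median scaling and cyclic loess, other ways to normalise, also called EGLN2 lower with MST-312 at 0 h, by -0.30 and -0.25. The all-gene medians under these settings were -0.14 and -0.06. The second EGLN2 probe gave a difference of 0.63 at 4 h and an interaction of 0.59 (adjusted p = 0.0152).

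VEGFA, the growth factor that drives new vessels, was higher with MST-312 at all 4 times, with no overlap between the arrays of both treatments at any of them. Its untreated arrays read 6.97, 7.17 and 7.44 at 0 h, 6.67, 6.71 and 7.08 at 4 h, 6.91, 6.90 and 6.87 at 8 h, and 7.37, 7.70 and 7.65 at 24 h. The MST-312 arrays read 8.41, 8.40 and 8.16 at 0 h, 8.35, 8.26 and 8.13 at 4 h, 8.00, 8.01 and 8.08 at 8 h, and 8.08, 8.07 and 8.47 at 24 h. The lowest MST-312 array of any time, 8.00, lay above the highest untreated array of any time, 7.70. The probe was detected on all 24 arrays but was dim in untreated cells. Group means of raw intensity were 216 (4 h) to 322 (24 h) there, and 354 to 405 with MST-312. The lower ones are not far above the 110 to 149 of ARNT, which did not pass.

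On the log2 scale VEGFA exceeded its untreated level by 1.13 at 0 h, by 1.43 at 4 h, by 1.14 at 8 h and by 0.63 at 24 h (SE 0.13 each). The adjusted p was 3.29e-07, 1.19e-08, 3.66e-07 and 0.000351 in that order. The MST-312 level passed the test in no comparison over time. The untreated level was lower at 4 h than at 0 h by 0.37 (adjusted p = 0.0283) and higher at 24 h than at 8 h by 0.68 (adjusted p = 0.000632). It also stood 0.38 above 0 h at 24 h (adjusted p = 0.0186). The 4 h call was lost without replicate 2 or 3 of untreated 0 h or replicate 1 or 2 of untreated 4 h (-0.38 to -0.25, adjusted p up to 0.169). The call at 24 h against 0 h was lost without replicate 1 of untreated 0 h or replicate 2 or 3 of untreated 24 h (0.27 to 0.34, adjusted p up to 0.118). The treatments' changes since 0 h did not differ by the test, with -0.50 at 24 h (SE 0.19, adjusted p = 0.0516), although leaving out any one of 5 arrays made it a call (-0.63 to -0.50, adjusted p 0.0156 to 0.0366). These were replicate 3 of untreated 0 and 4 h, replicate 1 of untreated 24 h, and replicate 3 of MST-312 at 0 and 24 h. The other 2 VEGFA probes were detected on no array.

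NDRG1, a stress-responsive gene of differentiating and hypoxic cells, was lower with MST-312 at first and higher at 24 h. Its probe was detected on all 24 arrays but was dim in most groups. Group means of raw intensity were 202 to 217 with MST-312, and 183 (24 h) to 405 (4 h) in untreated cells. The lower ones are not far above the 110 to 149 of ARNT, which did not pass. The untreated arrays read 7.93, 8.10 and 8.30 at 0 h, 8.24, 8.17 and 8.14 at 4 h, 6.87, 6.94 and 7.19 at 8 h, and 6.36, 6.02 and 6.29 at 24 h. The MST-312 arrays read 6.69, 7.03 and 6.83 at 0 h, 6.92, 7.01 and 6.73 at 4 h, 6.23, 6.76 and 6.97 at 8 h, and 6.70, 6.74 and 6.57 at 24 h. The untreated arrays were high at 0 and 4 h, above every MST-312 array, and at 24 h they lay below all 3 MST-312 arrays of that time.

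Untreated NDRG1 fell by 1.11 from 0 to 8 h (SE 0.15, adjusted p = 3.68e-06) and by 1.89 from 0 to 24 h (adjusted p = 1.48e-09), both on the log2 scale. With MST-312 the same changes were -0.19 and -0.18, and neither passed the test (adjusted p = 0.339 and 0.344). These changes differed between the treatments by 0.92 at 8 h (SE 0.22, adjusted p = 0.00467) and by 1.71 at 24 h (SE 0.22, adjusted p = 5.42e-06). The span of the group means, 1.96, exceeded that of 85.7% of genes. At each time the difference between MST-312 and untreated cells was -1.26 (0 h), -1.30 (4 h), -0.34 (8 h) and 0.44 (24 h). In that order the adjusted p was 4.52e-07, 3.16e-07, 0.0600 and 0.0157. The replicate block brought the 8 h difference past the threshold (adjusted p = 0.0230), and with KDM3A it raised the count of members that differed at 8 h from 2 to 4. The 24 h call was lost without untreated replicate 2 (0.34, adjusted p = 0.0874) or without MST-312 replicate 2 of that time (0.41, adjusted p = 0.0522).

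BNIP3, a mitochondrial protein that marks mitochondria for mitophagy, was higher with MST-312 at 0 and 4 h. The untreated arrays read 9.54, 9.37 and 9.30 at 0 h, 8.77, 8.70 and 9.14 at 4 h, 9.72, 9.66 and 9.80 at 8 h, and 10.12, 10.04 and 10.24 at 24 h. The MST-312 arrays read 10.13, 10.06 and 10.13 at 0 h, 9.66, 9.72 and 9.70 at 4 h, 9.98, 9.93 and 9.84 at 8 h, and 10.05, 10.04 and 10.06 at 24 h. Both treatments dipped at 4 h, and the untreated arrays then passed from below the MST-312 range at 0 h to overlapping it at 24 h.

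The difference in BNIP3 was 0.71 at 0 h (SE 0.10, adjusted p = 2.18e-06) and 0.82 at 4 h (adjusted p = 2.90e-07). It was 0.19 at 8 h (adjusted p = 0.0928) and -0.09 at 24 h (adjusted p = 0.456). At 24 h median scaling gave -0.32 (adjusted p = 0.0298), where the all-gene median was -0.17. The fall from 0 to 4 h was called in untreated cells (-0.53, adjusted p = 0.000121) and with MST-312 (-0.42, adjusted p = 0.00180). The rise from 0 to 24 h was 0.73 in untreated cells (adjusted p = 1.41e-06), against -0.06 with MST-312 (adjusted p = 0.626). The changes since 0 h differed by -0.51 at 8 h (SE 0.14, adjusted p = 0.0103) and by -0.79 at 24 h (SE 0.14, adjusted p = 0.000164).

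BNIP3L, the related receptor also called NIX, fell after release in both treatments. The untreated arrays went from 9.52, 9.48 and 9.42 at 0 h to 8.65, 8.59 and 8.56 at 24 h, and the MST-312 arrays from 9.41, 9.43 and 9.38 to 8.60, 8.63 and 8.45. In either treatment every 24 h array lay below every 0 h array, and the treatments overlapped at both times. The falls were 0.87 (SE 0.08, adjusted p = 5.59e-09) and 0.85 (adjusted p = 1.45e-08) and differed by 0.02 (95% confidence interval -0.20 to 0.25). Thus BNIP3 and BNIP3L, which serve the same process, moved in opposite directions over 24 h in untreated cells.

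BNIP3L differed between the treatments at 4 h alone, by 0.19 (adjusted p = 0.0432). Leaving out any one of 9 arrays ended this call, among them replicates 2 and 3 of untreated 4 h and replicates 1 and 2 of MST-312 at 4 h (0.13 to 0.20, adjusted p up to 0.192). Median scaling gave -0.15 (adjusted p = 0.260) where the all-gene median was -0.29, so relative to that median BNIP3L was higher by 0.14, against 0.22 before. With MST-312 its fall from 0 to 4 h was 0.25 (adjusted p = 0.0156), and without replicate 3 of that 4 h group the change was -0.21 (adjusted p = 0.0783). The dimmer BNIP3L probe gave -0.60 in untreated cells and -0.30 with MST-312 from 0 to 24 h, and neither passed. On that probe replicate 1 lay 0.37 below its group mean on average, and replicate 3 lay 0.36 above it.

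P4HA1, a catalytic subunit of collagen prolyl 4-hydroxylase, was lower with MST-312. The untreated arrays read 9.23, 9.07 and 9.20 at 0 h, 8.79, 8.93 and 9.27 at 4 h, 9.11, 9.13 and 9.44 at 8 h, and 9.04, 9.26 and 9.27 at 24 h. The MST-312 arrays read 8.92, 8.52 and 8.92 at 0 h, 8.33, 8.14 and 8.63 at 4 h, 8.11, 8.63 and 8.51 at 8 h, and 8.67, 8.92 and 9.01 at 24 h. The arrays of both treatments did not overlap at any time, but at 24 h the nearest, 9.01 and 9.04, were close.

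The difference in P4HA1 was -0.38 at 0 h (SE 0.16, adjusted p = 0.0461), -0.63 at 4 h (adjusted p = 0.00203) and -0.81 at 8 h (adjusted p = 0.000207). At 24 h it was -0.32 (adjusted p = 0.0913), which passed with the replicate block (adjusted p = 0.0164) and with median scaling (-0.51, adjusted p = 0.00613). The all-gene median with that scaling was -0.17. The 0 h call was lost on leaving out any one of 12 arrays, among them all 3 untreated 0 h arrays and replicate 2 of MST-312 at 0 h, and the value then ranged from -0.43 to -0.25 (adjusted p up to 0.227). Untreated P4HA1 changed in no comparison over time. With MST-312 it was lower at 4 h than at 0 h by 0.42 (adjusted p = 0.0468) and higher at 24 h than at 8 h by 0.45 (adjusted p = 0.0457). Those calls were lost on leaving out any one of 14 and of 13 arrays respectively (adjusted p up to 0.197 and 0.229). The second P4HA1 probe was detected on no array.

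KDM3A, a demethylase of histone H3 lysine 9, was higher with MST-312 at 24 h. The untreated arrays read 8.25, 8.60 and 8.80 at 0 h and 7.84, 8.06 and 8.29 at 24 h, and the MST-312 arrays 8.78, 8.59 and 9.05 at 0 h and 8.84, 9.32 and 9.18 at 24 h. The treatments overlapped at 0 h and lay apart at 24 h. The difference at 24 h was 1.05 (SE 0.18, adjusted p = 3.36e-05). The earlier differences were 0.26, 0.24 and 0.41 for 0, 4 and 8 h, with adjusted p of 0.227, 0.257 and 0.0577. The replicate block brought the 8 h difference past the threshold (adjusted p = 0.0166).

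Untreated KDM3A was lower at 24 h than at 0 h by 0.49 (adjusted p = 0.0237), and the change with MST-312 was 0.31 (adjusted p = 0.163). These changes differed by 0.79 (SE 0.25, adjusted p = 0.0219). The interaction lost its call without replicate 3 of untreated 0 h, replicate 1 of untreated 24 h, or replicate 2 of MST-312 at 0 or 24 h (0.67 to 0.69, adjusted p 0.0618 to 0.0652). The untreated change lost it without replicate 2 or 3 of 0 h or replicate 1 or 2 of 24 h (-0.48 to -0.36, adjusted p up to 0.124). KDM3A was the one member of the 8 whose largest difference between the treatments stood at 24 h.

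**Figure D2:**
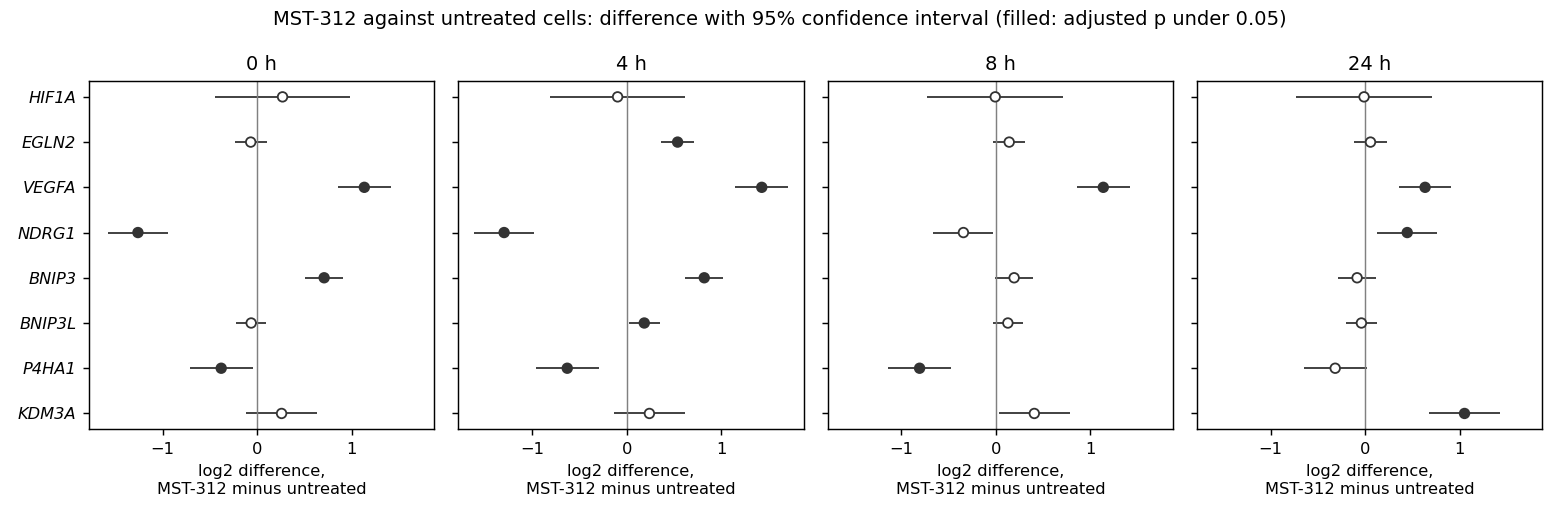
Log2 difference between MST-312 and untreated cells (horizontal axis) for the 8 measured genes (rows) at 0, 4, 8 and 24 h after release. Points are estimates from 3 arrays per group, bars 95% confidence intervals, and filled points have an adjusted p below 0.05. VEGFA lies to the right of 0 at every time, NDRG1 moves from -1.26 to 0.44, and the HIF1A interval holds 0 at every time.

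Over time, 4 of 8 members changed from 0 to 4 h in untreated cells, where 44.9% of all genes did, and all 4 fell (EGLN2, VEGFA, BNIP3 and BNIP3L), against 22.1% of all genes that fell. From 0 to 8 h 4 changed (51.2% of all genes), with BNIP3 up and EGLN2, BNIP3L and NDRG1 down. From 0 to 24 h 6 changed (59.5% of all genes), VEGFA and BNIP3 upward and EGLN2, BNIP3L, NDRG1 and KDM3A downward. Between successive times, 3 changed from 4 to 8 h (24.7% of all genes) and 4 from 8 to 24 h (27.9%).

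With MST-312 fewer members were called, 3 at 4 h (36.1% of all genes), 2 at 8 h (40.9%) and 2 at 24 h (51%) against 0 h. These were BNIP3, BNIP3L and P4HA1 at 4 h and EGLN2 and BNIP3L at both later times, and each of them fell, as did 18%, 22% and 26.5% of all genes. From 4 to 8 h 2 changed (14.8% of all genes), both downward (8.57%), and neither was called with median scaling or in a fit of only the arrays compared. From 8 to 24 h 2 changed (24%), namely P4HA1 upward and BNIP3L downward (-0.21), a call lost on leaving out any one of 20 arrays. The test of the difference itself called 1 member at 4 h, with a positive value (22.7% of all genes, 11.3% positive), 2 at 8 h (20.1%) and 3 at 24 h (30%). These were EGLN2 at 4 h, BNIP3 and NDRG1 at 8 h, and BNIP3, NDRG1 and KDM3A at 24 h. The MST-312 and the untreated changes share no arrays, but the changes within a treatment share its 0 h arrays.

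**Figure D3:**
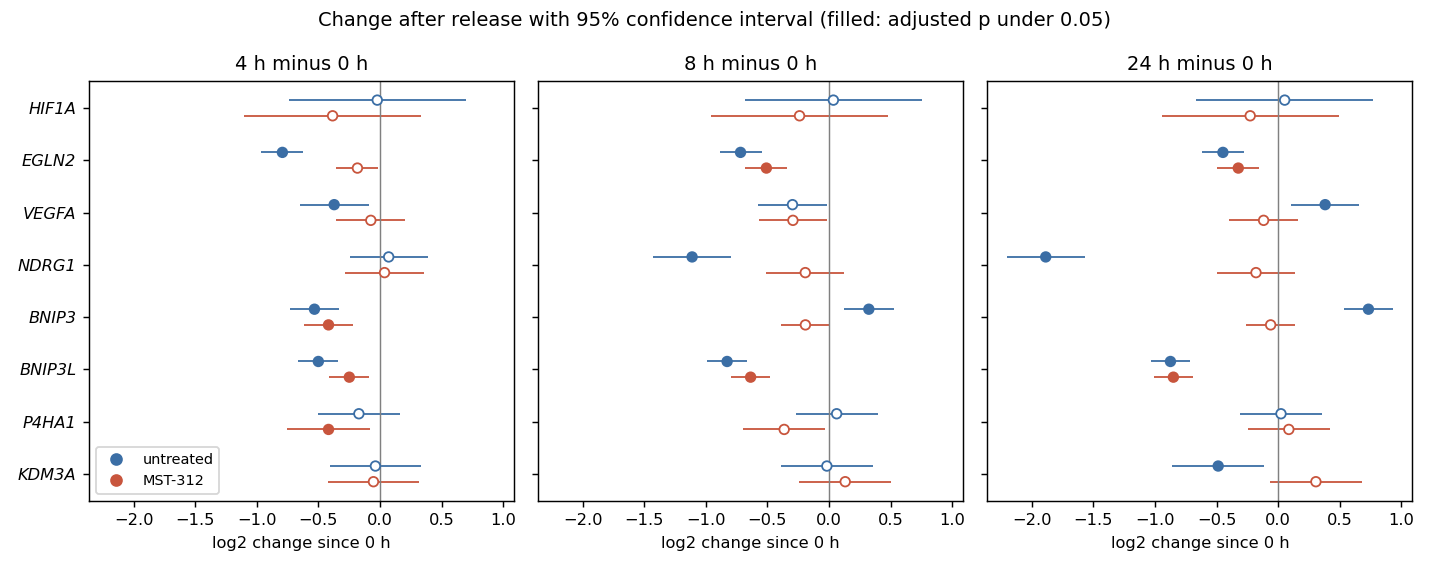
Log2 change since 0 h (horizontal axis) of the 8 measured genes (rows) at 4, 8 and 24 h, in untreated cells (blue) and with MST-312 (red). Points are estimates from 3 arrays per group, bars 95% confidence intervals, and filled points have an adjusted p below 0.05. NDRG1 reaches -1.89 at 24 h in untreated cells and -0.18 with MST-312, while BNIP3L reaches -0.87 and -0.85.

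Other genes of the pathway were followed by lists that leave out the members. Of all genes 27.6%, 26.5%, 25.6% and 28.9% were higher with MST-312 at 0, 4, 8 and 24 h, and 31.7%, 32.9%, 32.2% and 32.9% were lower, with medians of -0.02, -0.04, -0.03 and -0.03. Median scaling moved these medians to -0.14, -0.29, -0.26 and -0.17, against which its values are to be read. The regulators that control the factor's stability and activity had 11 of 19 genes tested, and at 0 h 4 were higher with MST-312, 3 lower and 4 did not pass. At 4, 8 and 24 h the higher counts were 1, 2 and 4 and the lower counts 3, 4 and 3. With median scaling 1, 0, 1 and 2 were higher and 5, 5, 4 and 4 lower at the 4 times. CREBBP, a coactivator of the factor, was higher by 0.81, 0.63, 0.73 and 0.94 at 0, 4, 8 and 24 h on its brighter probe (SE 0.09), while its other probe gave 0.42, 0.56, 0.33 and 0.42 and did not pass. Its 4 h call was lost with median scaling (0.28, adjusted p = 0.0643). RBX1, a subunit of the VHL ubiquitin ligase, was lower by 0.69, 0.74, 0.62 and 0.54 (SE 0.07). VHL, its recognition subunit, was higher at 0, 8 and 24 h by 0.48, 0.41 and 0.47 (SE 0.10), calls that were lost with median scaling (0.22, 0.07 and 0.23). HIF1AN, which hydroxylates the alpha subunit's activation domain, was lower at 0, 4 and 8 h by 0.48, 0.40 and 0.58 (SE 0.12).

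Other targets outside glycolysis had 28 of 39 genes tested. At 0, 4, 8 and 24 h 12, 13, 9 and 14 were higher with MST-312 and 7, 8, 8 and 7 lower, with a median difference of 0.12, 0.28, 0.02 and 0.31. Relative to all genes this median was higher by 0.14, 0.31, 0.06 and 0.34, and with median scaling by 0.10, 0.24, 0.03 and 0.28. STC2, a secreted glycoprotein, was higher by 2.12, 1.69, 1.28 and 1.47 (SE 0.14), and TFRC, the transferrin receptor, by 1.42, 2.15 and 1.47 at 0, 4 and 8 h (SE 0.07). FOXO3, a transcription factor of stress responses, was higher by 1.38 at 4 h and 1.11 at 8 h (SE 0.09), and by 0.80 and 0.74 on its other probe. PLOD1, a lysyl hydroxylase of collagen, was lower by 1.28, 1.27, 1.73 and 1.69 (SE 0.12). HMOX1, heme oxygenase 1, was lower by 1.26 at 0 h and 1.10 at 4 h (SE 0.10). At 24 h ADM, the vasodilator adrenomedullin, was higher by 1.43 and ANKRD37 by 1.26, while ERO1A, an oxidase of the endoplasmic reticulum, was lower by 1.01. Targets of the factor therefore stood on both sides at every time.

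Glycolytic targets were mostly lower with MST-312. Of 21 genes 18 were tested, and at each of the 4 times 14 were lower while 2, 2, 2 and 3 were higher, with medians of -0.50, -0.53, -0.53 and -0.67. Relative to the medians of all genes these were -0.48, -0.50, -0.50 and -0.64, and with median scaling 15 genes were lower at each time. PFKL, the liver type of phosphofructokinase, was lower by 2.05, 1.20, 1.29 and 1.71 (SE 0.20), and the aldolase ALDOC by 1.34, 1.35 and 1.29 at 0, 8 and 24 h (SE 0.12). PFKFB3, which makes the activator of phosphofructokinase, was higher by 1.07, 0.50, 0.75 and 0.93 (SE 0.09), and its second probe by 0.58, 0.48, 0.80 and 0.78. The 4 h call of PFKFB3 was lost with median scaling (0.16). From 0 to 24 h 11 glycolytic genes rose and 5 fell in untreated cells, against 9 and 5 with MST-312. Of all genes 29% rose and 30.5% fell in untreated cells, against 24.5% and 26.5%. LDHA, lactate dehydrogenase A, rose by 1.33 without and 1.37 with MST-312 (SE 0.08), and HK2, hexokinase 2, by 1.25 without and 1.30 with it (SE 0.12). The other LDHA probes rose by 1.20 and 1.04 without and by 1.31 and 0.74 with it. The other HK2 probe rose by 0.78 without and 0.99 with it. Several glycolytic genes, LDHA and HK2 among them, are textbook MYC targets as well as hypoxia targets.

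**Figure D4:**
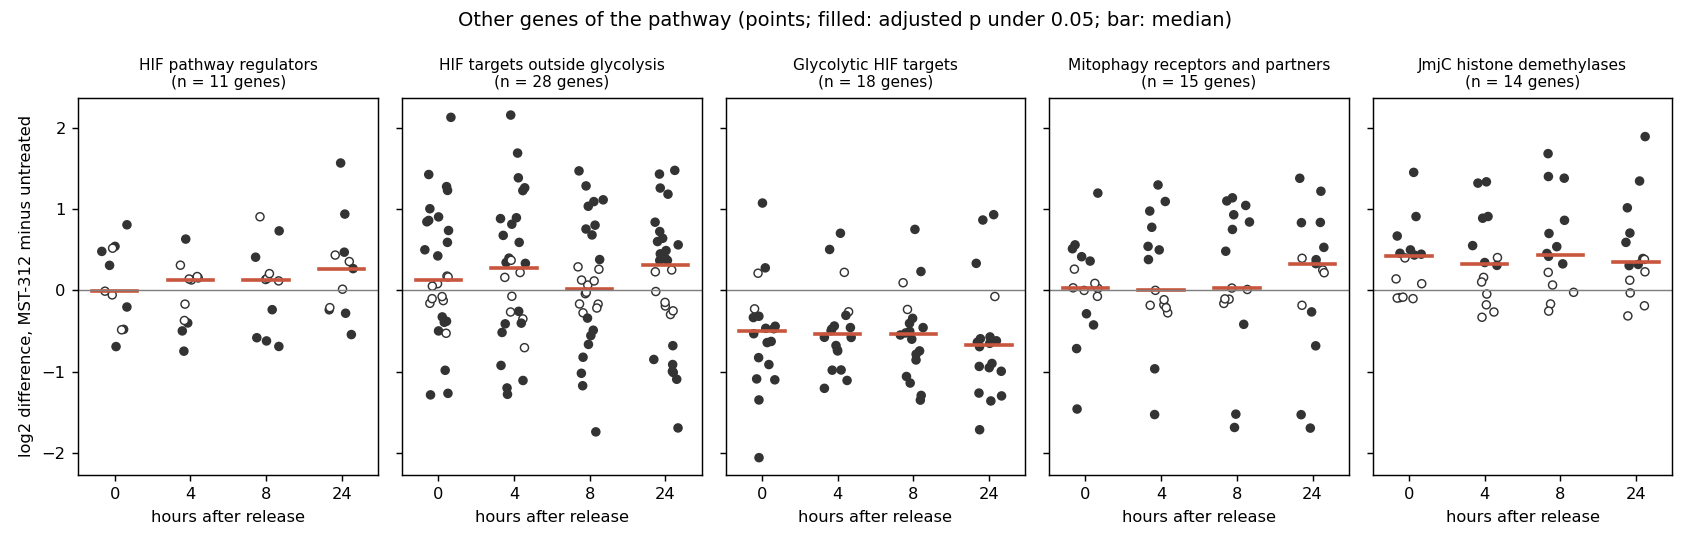
Log2 difference between MST-312 and untreated cells (vertical axis) for the tested genes of 5 lists (panels) at 0, 4, 8 and 24 h after release (horizontal axis, not to scale). Each point is a gene, filled where the adjusted p is below 0.05, and red bars are medians. The glycolytic medians lie between -0.67 and -0.50, while the other targets spread to both sides.

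Of 17 other histone demethylases with a JmjC domain, the family of KDM3A, 14 were tested, and 7, 7, 9 and 8 were higher at 0, 4, 8 and 24 h with none lower. With median scaling 5, 4, 6 and 5 were higher and 1, 3, 1 and 1 lower. KDM6A, a demethylase of histone H3 lysine 27, was higher by 0.91, 1.33, 1.40 and 1.89 (SE 0.10). Mitophagy receptors and their partners had 15 of 19 genes tested, with 5, 7, 7 and 7 higher and 4, 2, 3 and 4 lower, or 3, 4, 6 and 5 higher and 4, 7, 4 and 4 lower with median scaling. This is 33.3% to 46.7% higher and 13.3% to 26.7% lower by quantile normalisation. SQSTM1, an autophagy adaptor, was higher by 0.56, 1.29, 1.10 and 1.22 (SE 0.09), and BCL2L13, another mitophagy receptor, lower by 1.45, 0.96, 1.52 and 1.52 (SE 0.12). OPTN, an adaptor of the same process, changed from 0 to 24 h by -2.19 in untreated cells and by -1.90 with MST-312 (SE 0.10). Of 11 other collagen hydroxylase genes 7 were tested, with 1, 2, 1 and 1 higher and 2 lower at each time. P4HB, the partner subunit of P4HA1, was higher by 1.20, 1.36, 1.05 and 0.51 (SE 0.09), opposite to P4HA1, although its 24 h call was lost with median scaling (0.27). Of 9 other genes of the VEGF family and its receptors 4 were tested, and 2 were lower at each time. VEGFB, one of the 2, was lower by 0.48, 0.30, 0.47 and 0.65 (SE 0.08), opposite to VEGFA. NDRG3, the tested relative of NDRG1, was higher by 0.43, 0.59, 0.30 and 0.29 on its brighter probe (SE 0.09). Median scaling took all 4 of these calls (0.24, 0.25, 0.01 and 0.09). The other NDRG3 probe gave 0.39, 0.12, 0.46 and 0.36 and passed at 8 h alone (adjusted p = 0.0499).

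The genes with the most similar pattern to HIF1A and VEGFA were found from the 8 group means, each centred on its own mean. For VEGFA the smallest root mean square differences in log2 were 0.128 for SLC7A6OS, 0.135 for RTTN, 0.141 for PMS2P4, 0.157 for USP12 and 0.161 for SLC33A1. For HIF1A they were 0.0605 for AQR, 0.0618 for PPP4R3B, 0.0619 for RDH11, 0.0629 for TOR2A and 0.0637 for PCNP. The group means of HIF1A spanned 0.38, less than the median SD of 0.44 between its arrays of a group. Its matches therefore rest on differences in means that lie within that spread. The spans of the matched genes included 0.29 for AQR and 0.55 for PPP4R3B. None of the 10 is among the members.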

How the data were processed

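RNA of 8 groups was hybridised to 24 Illumina expression beadchip arrays, per the labels' protocols. In the deposited table of raw values every array has 1 intensity and 1 detection p-value for each of 47322 probes, per the file headers. A second deposited table holds the authors' processed intensity values, whose array medians of 138.28 to 138.37 are nearly equal. The sources used here do not give their method, and they served as an alternative. Probes were named through the platform annotation.

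The function neqc of limma 3.58.1 in R 4.3.3 turned raw intensity into log2 values, by normexp on the detection p-values with an offset of 16 and by quantile normalisation. A probe passed if its detection p was under 0.05 on each of the 3 arrays of some group (17882 probes, 13518 of them with 1 symbol). The brightest passing probe stood for its gene, which gave 10246 genes. Mean raw intensity was 527 to 764 per array. The number of arrays limits the precision. Between arrays of 1 group the correlation over genes was 0.987 to 0.994.

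One limma model with 8 group means (16 residual and 3.78 prior degrees of freedom) gave 17 comparisons, with p-values adjusted by Benjamini-Hochberg over all genes and two-sided. These were MST-312 against untreated cells at each time, changes over time within a treatment, and the interaction, which is the change since 0 h with MST-312 minus that in untreated cells. The script was also run on simulated data with independent noise between arrays, a run that lends these results no support. From each list the text names, by rule, some of up to 3 changed genes with the largest rise and up to 3 with the largest fall per comparison of the treatments or change from 0 to 24 h, and for HIF1A and VEGFA the 5 genes of most similar pattern. The 10 members and all lists were chosen with earlier results of these data known, and give no independent support. Promoter sequences are RefSeq's, on GRCh38.p14, and were read for 7 members (ARNT, EGLN1 and HIF1A included), of which 4 are printed. The search left out chromosome 8 and with it BNIP3L and NDRG1, and VEGFA had no entry.

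The labels share replicate numbers between groups. Arrays with the same number and time deviated together in 12 of 12 pairs (correlation of deviations from the group means 0.110 to 0.378), so the numbers were taken to pair the arrays in the comparisons between the treatments. They were also so taken for 4 to 8 h and 8 to 24 h within a treatment, but not for comparisons with 0 h or interactions, where some pairs were below 0.1. The main model has no block, so its SE and p-values do not use this pairing. The block is given as an alternative. The alternatives were other background corrections, offsets and normalisations, stricter and no filters on dim probes, the mean of a gene's probes, array weights, only the arrays compared, the replicate block, and leaving out each array.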

Additional observations from a re-analysis of the deposited data

Results flagged for a closer look

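In 6 cases the change since 0 h differed between MST-312 and untreated cells by the interaction term of the limma model, which is the test of that difference. For EGLN2 at 4 h the MST-312 change exceeded the untreated one by 0.61 on the log2 scale (SE 0.12, adjusted p = 0.000690). For BNIP3 it was below it by -0.51 at 8 h (adjusted p = 0.0103) and by -0.79 at 24 h (adjusted p = 0.000164). For NDRG1 it was above it by 0.92 at 8 h (adjusted p = 0.00467) and by 1.71 at 24 h (adjusted p = 5.42e-06). For KDM3A the value was 0.79 at 24 h (adjusted p = 0.0219), and leaving out any one of 4 arrays gave 0.67 to 0.69 (adjusted p 0.0618 to 0.0652).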

How the results depend on the processing

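Over 136 member values and 36 alternatives, 4634 results kept direction and side of the threshold, 128 lost a call, 52 gained one and 2 turned. Those that turned were BNIP3L between the treatments at 4 h with median scaling (-0.15, above the all-gene median of -0.29) and BNIP3L with MST-312 from 8 to 24 h with the mean of its probes (0.060). Median scaling moved the all-gene median in the comparisons of the treatments to -0.14, -0.29, -0.26 and -0.17 at 0, 4, 8 and 24 h, and split the called genes 1888 higher to 3705 lower, 1430 to 4632, 1419 to 4405 and 2015 to 3981. The split was 2833 to 3247, 2716 to 3367, 2618 to 3295 and 2962 to 3369 otherwise. Of the genes called after release, the percentage that rose went with median scaling from 50.9%, 48.4% and 48.7% to 62.0%, 60.8% and 59.9% in untreated cells (4, 8 and 24 h against 0 h). With MST-312 it went from 48.0% to 60.3% (24 h against 0 h), from 42.2% to 60.5% (4 to 8 h) and from 44.4% to 66.5% (8 to 24 h). Positive interactions went from 49.6% to 29.6% at 4 h and to 33.9% at 8 h (1032 positive and 1031 negative otherwise), where cyclic loess gave 61.2%. Members that differed at 8 h numbered 4 with cyclic loess, 4 with the replicate block within each time and 6 with array weights, against 2. At 24 h they numbered 5 with median scaling, against 3. The shares of all genes under the same settings are not set beside these counts, which describe the settings and not the members. With MST-312, members changed from 0 to 4 h numbered 1 on only the arrays compared, against 3. From 4 to 8 h they numbered 0 with median scaling, 1 with the mean of probes and 0 on only the arrays compared, against 2, and 703 genes were called with median scaling and 631 on only the arrays compared, against 1520. From 8 to 24 h, against 2, they numbered 1 without background correction, with an offset of 50, with cyclic loess, with the authors' values and with the mean of probes, and 0 without a filter, on only the arrays compared (1352 genes called, against 2461) and with array weights. Leaving out 1 array gave 1005 to 1543 genes from 4 to 8 h and 0 to 2 members from 8 to 24 h with MST-312, and moved no other count by over 1.5 times. The cause of these shifts was not tested, except that fewer arrays were fitted where only those compared were used. In the paired comparisons the replicate block also called untreated KDM3A from 8 to 24 h (adjusted p = 0.0118, against 0.0562), and beside the members named with it above it changed no other paired call. With MST-312 from 0 to 8 h, where the numbers do not pair the arrays, it called P4HA1 (adjusted p = 0.0292). The block within each time was not run for changes over time, where it cannot be estimated. The probes of ARNT and EGLN1 were too close to background to test.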
